A study of Mus musculus with 11 samples.

Results

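Gas7, Ypel2, Filip1, Sytl5, Syndig1l and Prune2 are 6 genes whose RNA was higher in hypothalamus from Myt1l heterozygous mice (Het) than from wild-type mice (WT). They are 6 of the 14864 genes in the deposited table, and all 6 were among the 13184 genes with a mean of at least 1 CPM (counts scaled to the size of the library) over all 11 libraries. They were picked by name because of their Het against WT differences in these same libraries. Those differences are therefore given below as a description, without a test. Total RNA was sequenced from 6 Het libraries, 3 male and 3 female, and 5 WT libraries, 3 male and 2 female. Each library came from the hypothalamus of a mouse aged 60 to 70 days after birth, and the series design calls them biological replicates. The labels give the genotype as Het or WT only, so the kind of Myt1l mutation, the strain and any other treatment were not given in the sources used here. The identifiers of the libraries begin with 14308 (2 Het and 2 WT, all male), 14309 (4 Het and 2 WT) or 14111 (WT replicate 4 alone), and the labels do not say what these prefixes mean.

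The protein made from Myt1l is a neuronal zinc finger transcription factor, and loss of 1 copy in people causes a neurodevelopmental syndrome in which obesity is common. The hypothalamus, the brain region sampled, controls feeding, body temperature, hormone release and sleep. The 6 genes belong to different families. Gas7 and Filip1 act on the actin cytoskeleton, and Sytl5 and Syndig1l encode proteins of membrane traffic and of neuronal membranes. Prune2 encodes a large protein with a BCH domain, and Ypel2 a small protein of the Yippee-like family, whose cellular role is little defined.

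Promoter sequences are shown for the members in the RefSeq promoter table of build GRCm38.p6, which holds 4 of the 6, because these genes moved in the same direction between genotypes. Each window runs from 250 bases before the annotated start to 50 bases after it, 300 bases in all, 5′ to 3′ on the gene's own strand. The lines below are Ypel2 at chr11:86993713-86994012 on the minus strand, Filip1 at chr9:79977833-79978132 on the minus strand, Sytl5 at chrX:9885371-9885670 on the plus strand and Prune2 at chr19:16955868-16956167 on the plus strand. Filip1 has 4 windows in the table, of which the one nearest its principal start is shown. Capitals mark the core recognised by the MYT1 family, AAGTT or its reverse complement AACTT.
Ypel2: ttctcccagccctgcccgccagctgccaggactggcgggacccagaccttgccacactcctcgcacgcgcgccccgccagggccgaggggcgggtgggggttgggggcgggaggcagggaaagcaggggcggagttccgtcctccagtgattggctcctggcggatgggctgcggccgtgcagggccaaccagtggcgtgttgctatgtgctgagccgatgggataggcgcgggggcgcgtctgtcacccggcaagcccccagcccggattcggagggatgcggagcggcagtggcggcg
Filip1: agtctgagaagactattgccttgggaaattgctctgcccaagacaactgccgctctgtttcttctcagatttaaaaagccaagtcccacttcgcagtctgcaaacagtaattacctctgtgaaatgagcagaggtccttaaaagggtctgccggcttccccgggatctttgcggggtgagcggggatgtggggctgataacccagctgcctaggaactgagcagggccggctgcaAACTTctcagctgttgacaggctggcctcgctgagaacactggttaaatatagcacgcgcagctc
Sytl5: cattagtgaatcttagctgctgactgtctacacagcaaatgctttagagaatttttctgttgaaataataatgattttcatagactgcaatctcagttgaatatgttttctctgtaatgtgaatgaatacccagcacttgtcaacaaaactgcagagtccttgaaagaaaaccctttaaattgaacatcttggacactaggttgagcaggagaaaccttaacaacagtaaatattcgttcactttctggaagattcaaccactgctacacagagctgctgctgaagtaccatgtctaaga
Prune2: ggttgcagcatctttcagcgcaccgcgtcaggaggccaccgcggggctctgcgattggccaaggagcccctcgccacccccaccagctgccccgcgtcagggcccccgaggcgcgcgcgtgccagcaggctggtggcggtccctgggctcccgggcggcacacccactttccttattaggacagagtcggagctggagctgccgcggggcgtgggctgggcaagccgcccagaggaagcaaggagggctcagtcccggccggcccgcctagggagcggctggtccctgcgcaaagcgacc

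The 4 windows differed in base composition. Ypel2 and Prune2 each had 72.7% G and C, Filip1 had 53% and Sytl5 had 37%, against a median of 52.7% over the 32851 windows of the table. The MYT1 core was found on either strand in 1 of the 4 windows, that of Filip1, where it lies 15 bases before the start. Over all windows, 39.3% held it. The GC box GGGCGG, also read on both strands, occurred 3 times in the Ypel2 window and 2 times in the Prune2 window, and 35.7% of all windows held it. The Prune2 window had 2 matches to TGACG, the core of the cAMP response element, which 20.8% of all windows held. TGACTCA, the AP-1 element, and TATAAA, the TATA box, had no match in the 4 windows, and were held by 5.2% and 13.6% of all windows. No motif of the 5 searched was in all 4 windows. A match is one of letters only.

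The libraries had 22921048 to 24941704 corrected counts each. Myt1l itself did not separate the genotypes. It was at 58.7 to 75.9 CPM in 5 Het libraries and at 130 CPM in the library labelled Het replicate 9, against 70.5 to 89.3 CPM in 4 WT libraries and 51.1 CPM in the library labelled WT replicate 11. These 2 libraries go against their labels for the mutated gene, so member differences are also given without both. Between genotypes, limma called 303 genes higher (2.30% of the genes tested) and 150 lower (1.14%) in Het, or 3.44% in either direction (Benjamini-Hochberg adjusted p threshold 0.05). Median centring gave 233 higher and 243 lower, and quantile normalization 362 higher and 102 lower. Of 13 hypothalamic marker genes, all were detected in every library. The median Het minus WT difference over all genes tested was -0.016 on the log2 scale, and every member difference below is on that scale as log2(CPM + 0.5) with genotype and sex in the fit.

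The members did not share one kind of prominence. Ordered by p-value over all genes tested, Gas7 came 1st and Ypel2 came 2nd, while Filip1 had rank 44, Syndig1l rank 49, Prune2 rank 55 and Sytl5 rank 97. Ordered by size among the 303 genes called higher, Sytl5 had rank 4, Filip1 rank 11 and Syndig1l rank 12, while Ypel2 had rank 41, Gas7 rank 67 and Prune2 rank 203. Gas7 and Ypel2 thus stood out for the size of the difference relative to the spread of their libraries, and Sytl5, Filip1 and Syndig1l for the size of the difference itself. Prune2 led by neither measure, although its libraries had the smallest pooled SD on the log2 scale, 0.11 against 0.14 for Gas7 and 0.15 for Ypel2. The description as strongest risers thus fits Prune2 least. In 5 of the 6 genes every Het library was above every WT library, a pattern that 2.02% of all genes tested showed. Because the genes were picked on this contrast, that count carries no weight of its own.

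Gas7 encodes an F-BAR protein, which binds curved membrane and bundles actin and is needed for neurite outgrowth in cultured neurons. The gene (ENSMUSG00000033066) lies on chromosome 11 from 67455437 to 67688990 on the plus strand of mm10, with 11342 bases of exon. Its Het libraries ranged from 176 to 224 CPM with a median of 186 CPM, and its WT libraries had 133, 117, 117, 144 and 149 CPM, in the order of replicates 3, 4, 6, 7 and 11 that is kept below. No Het library reached down to a WT library, and the highest Het value was that of the library labelled Het replicate 9. The mean was 191 ± 17.6 CPM in Het and 132 ± 15.1 CPM in WT (SD, n = 6 and n = 5), a ratio of 1.45 and a log2 difference of 0.55 (SE 0.06). The gap between the lowest Het and the highest WT library was 0.24. The exons of Gas7 share 66 bases with Glp2r on the opposite strand, and the strand setting of the counting was not given in the sources used here. Glp2r averaged 0.126 CPM in Het and 0.394 CPM in WT and never passed 0.840 CPM, far below Gas7.

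Filip1 encodes filamin A interacting protein, which promotes the degradation of filamin A, an actin crosslinker, and in rat holds back the start of neuronal migration. The gene (ENSMUSG00000034898) lies on chromosome 9 from 79815051 to 80012851 on the minus strand, with 5097 bases of exon. Its Het libraries ranged from 7.38 to 13.1 CPM with a median of 8.58 CPM, and its WT libraries had 5.23, 3.84, 3.53, 6.50 and 6.39 CPM. The groups did not overlap, but the Het libraries were uneven, with Het replicate 8 and the library labelled Het replicate 9 above the other 4. The mean was 9.53 ± 2.37 CPM in Het and 5.10 ± 1.39 CPM in WT, a ratio of 1.87 and a log2 difference of 0.89 (SE 0.15). The plain difference of the group means on the log2 scale, without sex in the fit, was 2.45 times the pooled SD of the libraries. This was the smallest such multiple of the 6 genes.

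Sytl5 encodes a synaptotagmin-like protein, an effector of Rab27 with paired C2 domains that acts in vesicle traffic. The gene (ENSMUSG00000054453) lies on the X chromosome from 9885622 to 9994543 on the plus strand, with 2301 bases of exon. Its Het libraries ranged from 2.47 to 4.41 CPM with a median of 3.28 CPM, and its WT libraries had 1.94, 1.46, 1.05, 0.797 and 1.76 CPM. No WT library reached the lowest Het library, at the lowest level of the 6 genes, from 19 to 105 corrected counts per library. The mean was 3.46 ± 0.753 CPM in Het and 1.40 ± 0.478 CPM in WT, a ratio of 2.47 and a log2 difference of 1.09 (SE 0.21). On the deposited log2 scale, whose added constant is smaller, the difference was 1.31, and with 1 CPM added it was 0.91, so its size depends on the constant more than that of the other 5.

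Syndig1l encodes a membrane protein related to SynDIG1, a partner of AMPA receptors, and is also known as capucin for its enrichment in caudate and putamen. The gene (ENSMUSG00000071234) lies on chromosome 12 from 84677277 to 84698831 on the minus strand, 54.8 Mb from Myt1l on the same chromosome, with 3080 bases of exon. Its Het libraries ranged from 9.64 to 15.3 CPM with a median of 13.8 CPM, and its WT libraries had 10.3, 5.97, 5.75, 6.12 and 8.49 CPM. It was the one member whose groups overlapped, since WT replicate 3 was above Het replicate 7. The mean was 13.1 ± 2.03 CPM in Het and 7.33 ± 2.01 CPM in WT, a ratio of 1.79 and a log2 difference of 0.85 (SE 0.15). Its exons share 177 bases with Gm48573, an annotated antisense transcript, so reads of the pair may not be told apart.

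Ypel2 belongs to a family of small, highly conserved proteins with a putative zinc-binding fold. The gene (ENSMUSG00000018427) lies on chromosome 11 from 86936425 to 86993707 on the minus strand, 19.2 Mb from Gas7, with 4847 bases of exon. Its Het libraries ranged from 35.9 to 50.3 CPM with a median of 41.0 CPM, and its WT libraries had 28.0, 24.2, 24.1, 30.2 and 29.0 CPM. The groups did not overlap and 4 of the 6 Het values lay close together, with Het replicate 7 lowest and the library labelled Het replicate 9 highest in Het. The mean was 41.9 ± 4.72 CPM in Het and 27.1 ± 2.81 CPM in WT, a ratio of 1.55 and a log2 difference of 0.64 (SE 0.08). The plain difference of the group means on the log2 scale, without sex in the fit, was 4.04 times the pooled SD. This was the highest multiple of the 6 genes, ahead of 3.69 for Gas7.

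Prune2 encodes a BCH domain protein of the nervous system that has been linked to cell survival and differentiation. The gene (ENSMUSG00000039126) lies on chromosome 19 from 16956118 to 17223932 on the plus strand, with 20297 bases of exon. Its Het libraries ranged from 252 to 307 CPM with a median of 279 CPM, and its WT libraries had 239, 210, 218, 232 and 202 CPM. The groups did not overlap, but the gap between them was 0.08 on the log2 scale. The mean was 281 ± 24.3 CPM in Het and 220 ± 15.2 CPM in WT, a ratio of 1.28 and a log2 difference of 0.36 (SE 0.06), the smallest difference of the 6 genes.

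**Figure D1:**
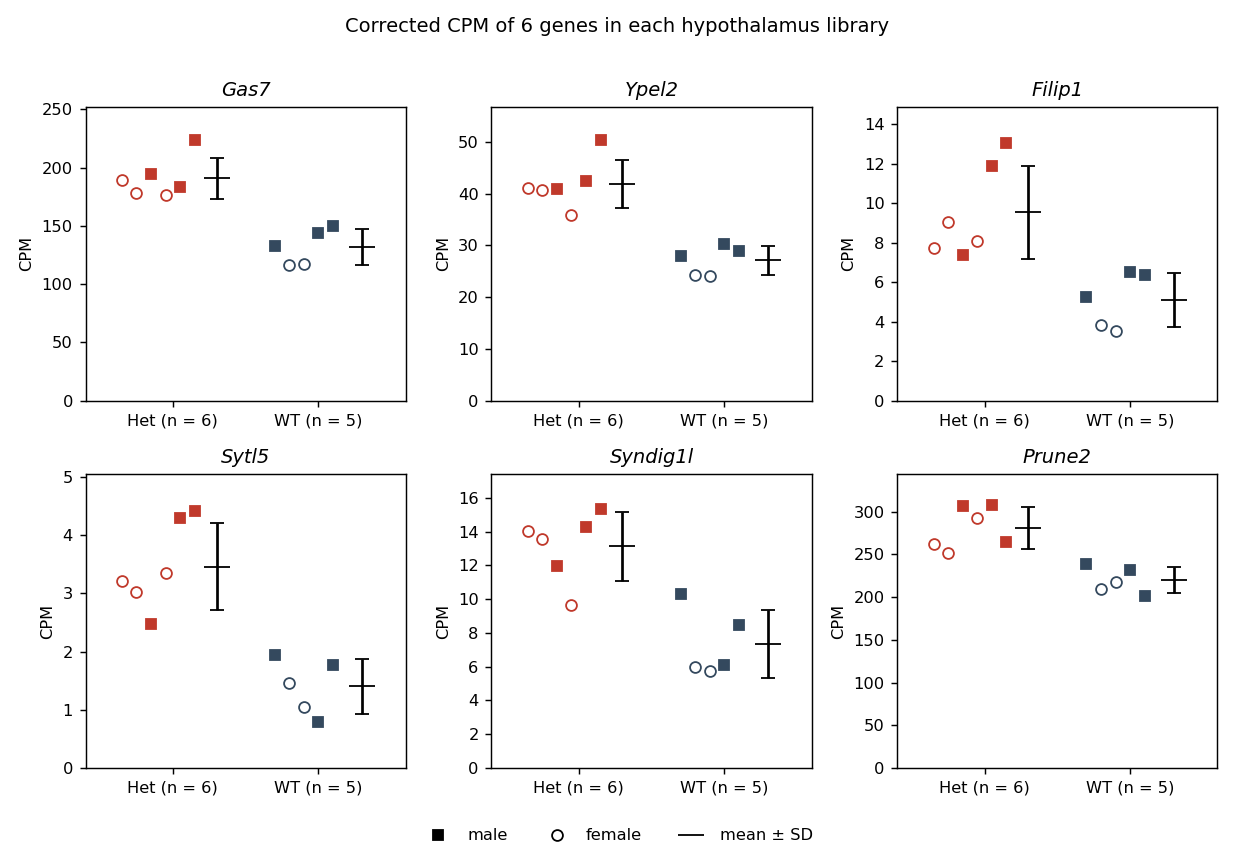
Level of each of the 6 genes in CPM (vertical axis, from 0) in every library, Het at the left and WT at the right of each panel, with squares for males, circles for females and a line with bars for mean ± SD (n = 6 Het, n = 5 WT). The groups are apart in 5 panels, and in Syndig1l the lowest Het library, at 9.64 CPM, is below the highest WT library, at 10.3 CPM.

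Per kilobase of exon, the scale on which genes can be compared, Gas7 and Prune2 were the most abundant members. Gas7 was at 16.8 CPM per kilobase in Het and 11.6 in WT, and Prune2 at 13.8 in Het and 10.8 in WT. Ypel2 followed with 8.64 in Het and 5.59 in WT, and Syndig1l with 4.26 in Het and 2.38 in WT. Filip1 was at 1.87 in Het and 1.0 in WT, and Sytl5 at 1.5 in Het and 0.609 in WT. In WT, Gas7 and Prune2 differed by less than the SD of Gas7, 1.33, and by slightly more than that of Prune2, 0.750. In Het, Filip1 and Sytl5 differed by less than the SD of Filip1, 0.465. The members thus covered much of the range of expression, from percentile 32.8 of the table for Sytl5 to percentile 79.1 for Gas7.

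The same library was often extreme for several members. The library labelled Het replicate 9 was the highest Het library for 5 of the 6 genes, all but Prune2, where Het replicate 8 was highest. Het replicate 7 was the lowest Het library for 3 genes, and WT replicate 6 the lowest WT library for 3. WT replicate 3 was the highest WT library for 3 genes, WT replicate 7 for 2 and the library labelled WT replicate 11 for 1. Without the libraries labelled Het replicate 9 and WT replicate 11, the log2 differences were 0.55 for Gas7, 0.61 for Ypel2, 0.87 for Filip1, 1.08 for Sytl5, 0.86 for Syndig1l and 0.35 for Prune2. Leaving out both moved Ypel2 the most, from the 0.64 of all 11 libraries. Leaving out each of the 11 libraries in turn kept Gas7 between 0.52 and 0.59, Ypel2 between 0.60 and 0.67 and Prune2 between 0.32 and 0.39. The same runs kept Filip1 between 0.84 and 1.03, Sytl5 between 0.95 and 1.21 and Syndig1l between 0.77 and 0.95.

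Each difference had the same direction in both prefixes that hold both genotypes. In the 4 libraries of prefix 14308, all male, the log2 differences were 0.45 for Gas7, 0.51 for Ypel2, 0.64 for Filip1, 1.09 for Sytl5, 0.68 for Syndig1l and 0.38 for Prune2. In the 6 libraries of prefix 14309 they were 0.61, 0.73, 1.07, 1.20, 0.94 and 0.34 in that order. The values in prefix 14309 were the larger ones for all but Prune2. With so few libraries in a prefix, the difference between prefixes was not tested. The shared direction carries no weight of its own, because the genes were picked on this contrast in these same libraries.

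**Figure D2:**
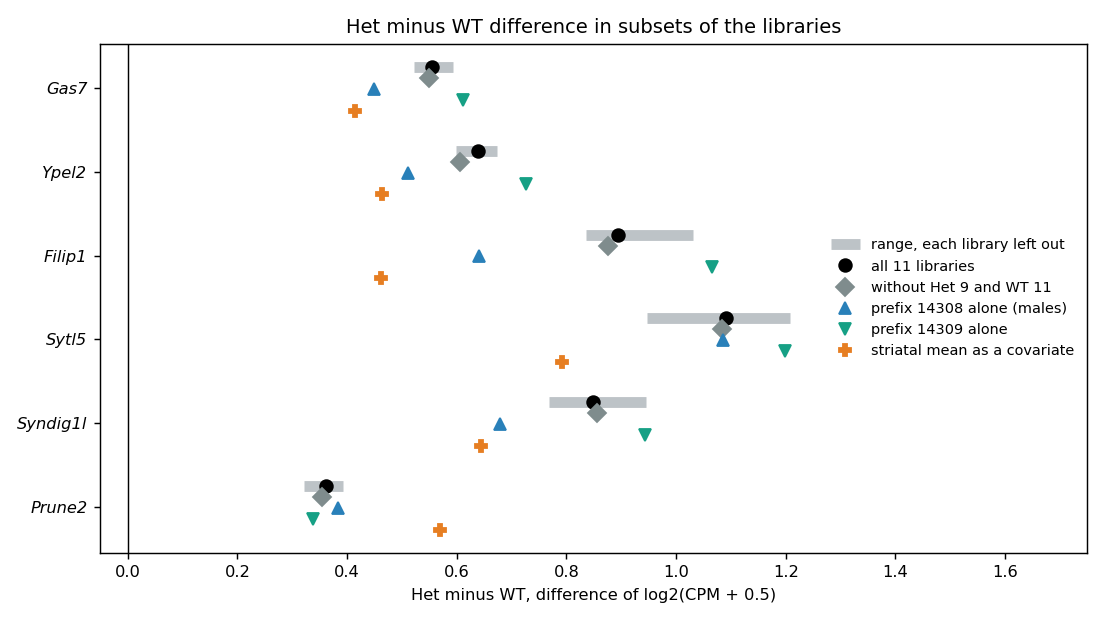
Het minus WT difference of log2(CPM + 0.5) (horizontal axis) for each gene, with all 11 libraries (black), without the libraries labelled Het replicate 9 and WT replicate 11 (grey diamonds), within each identifier prefix (triangles) and with the mean of the striatal marker list as a covariate (orange crosses), over the range when each library is left out (grey bars). All points lie above 0, and the covariate moves Prune2 up to 0.57 and the other 5 down.

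Markers of the striatum, a forebrain region outside the hypothalamus, moved with genotype. All 14 striatal markers were detected in every library and all 14 had positive differences, with a median of 0.45. By limma with Benjamini-Hochberg adjustment, 6 of them were called higher in Het, where 2.30% of all genes were. These were Drd1, Adora2a, Pde10a, Rasd2, Adcy5 and Gnal, genes of dopamine and adenosine signalling in striatal neurons. The summed level of all 14 was 2245 to 4025 CPM in Het libraries and 1960 to 2489 CPM in WT libraries, so the groups overlapped in the sum. Most of that sum was Penk, which was not called and averaged 1471 CPM in Het and 1125 CPM in WT. Of the called markers, Drd1, Pde10a, Adcy5 and Gnal had every Het library above every WT library, and Adora2a and Rasd2 did not. Among all genes tested, 2.02% had that pattern. Of the 13 hypothalamic markers, 5 were called lower in Het, where 1.14% of all genes were. These were the neuropeptide genes Hcrt, Pmch, Avp, Oxt and Gal. The hypothalamic list had a median of -0.30 and sums of 2023 to 3287 CPM in Het and 2998 to 3930 CPM in WT. With the mean of the striatal list added as a covariate, a run chosen after the data were seen, the member differences were 0.41 for Gas7, 0.46 for Ypel2, 0.46 for Filip1, 0.79 for Sytl5, 0.64 for Syndig1l and 0.57 for Prune2. All 6 stayed above 0, the difference of Filip1 became smaller by the most and that of Prune2 became larger. In pieces of tissue, more cells of a kind and more RNA per cell cannot be told apart.

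Markers of other cell types and regions passed in few cases. None of 8 oligodendrocyte, 8 microglial, 6 endothelial or 5 measured choroid plexus and ependymal markers passed, and of 10 markers of cortex and hippocampus none did either. The choroid plexus and ependymal list had a median of -0.37, with sums of 20.8 to 37.8 CPM in Het and 26.0 to 59.4 CPM in WT. The oligodendrocyte precursor list had positive differences in all 5 genes and a median of 0.22, and 1 gene passed, Gpr17, higher in Het. Its sums were 56.3 to 62.1 CPM in Het and 45.1 to 52.5 CPM in WT, so that the groups did not overlap. The astrocyte list had 1 of 8 genes pass, Slc1a2, and the thalamic list 1 of 9, Tcf7l2, each higher in Het. Of all genes tested, 2.30% were called higher. The part of any of these in the member differences was not tested.

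Inside the groups, Prune2 had negative correlations with the other 5, but none passed adjustment (adjusted p of at least 0.327 by exact permutation). The deposited values had been corrected in a way that took out variation inside groups. How this altered the correlations was not tested. When each library was set against the mean of its own genotype and sex, a step that removes the genotype difference used to pick the genes, all 10 pairs among Gas7, Ypel2, Filip1, Sytl5 and Syndig1l had a positive Pearson r over the 11 libraries, from 0.0257 to 0.781. Without the 2 libraries farthest from the median of the first gene of a pair, 5 of these 10 were negative, with a range of -0.352 to 0.593, so those relations rest on the libraries left out. All 5 pairs with Prune2 were negative, from -0.77 to -0.282, and from -0.691 to -0.0253 without the 2 farthest. Gas7 and Ypel2 had the highest value, r = 0.781 and Spearman rho = 0.773, with p = 0.081 and 0.0324 by exact permutation within genotype and sex and adjusted p = 0.395 and 0.327 over 39 relations. Without the 2 libraries farthest from the median of Gas7, r was 0.593. Gas7 and Prune2 had the lowest value, r = -0.77 and rho = -0.8, with exact permutation p = 0.0463 and 0.0231, adjusted p = 0.361 and 0.327, and r = -0.691 without the 2 farthest libraries.

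Relations to the marker lists also differed in sign between Prune2 and the others. Set against the mean of the striatal list within genotype and sex, r was 0.694 for Gas7, 0.798 for Ypel2, 0.837 for Filip1, 0.413 for Sytl5 and 0.365 for Syndig1l. Without the 2 farthest libraries it was 0.0165 for Sytl5 and 0.164 for Syndig1l, so no relation held for these. For Prune2 it was -0.9 and rho was -0.864, with exact permutation p = 0.00463 and 0.00926 and adjusted p = 0.181 and 0.327, and r was -0.938 without the 2 farthest libraries. Filip1 had rho = 0.736 with exact permutation p = 0.0324 for r and 0.0671 for rho, adjusted p = 0.361 and 0.327, and r = 0.627 without the 2 farthest. Against the mean of the hypothalamic list the signs were the opposite, with r = -0.679 for Gas7 (-0.0569 without the 2 farthest) and 0.579 for Prune2 (0.291 without them). Ypel2 had r = -0.89 and rho = -0.864 with that list, with exact permutation p = 0.0648 and 0.0463, adjusted p = 0.361 and 0.327, and r = -0.819 without the 2 farthest. Against the mean of the oligodendrocyte list, r was -0.332 for Prune2 and ran from 0.221 for Gas7 to 0.527 for Syndig1l in the others. The exact permutation adjusted p for r was 0.597 or more. Syndig1l and Sytl5 (r = 0.48) had higher r with this list than with the striatal list. Without the 2 farthest libraries, r was 0.316 for Syndig1l, 0.17 for Sytl5 and -0.0339 for Prune2. Against Myt1l, r ran from -0.0338 for Prune2 to 0.601 for Ypel2, with adjusted p of 0.761 or more for all but Ypel2, at 0.619. None of the 39 relations passed adjustment, and the smallest p that 432 arrangements allow is 0.00231. A prefix holds too few libraries for a value of its own.

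**Figure D3:**
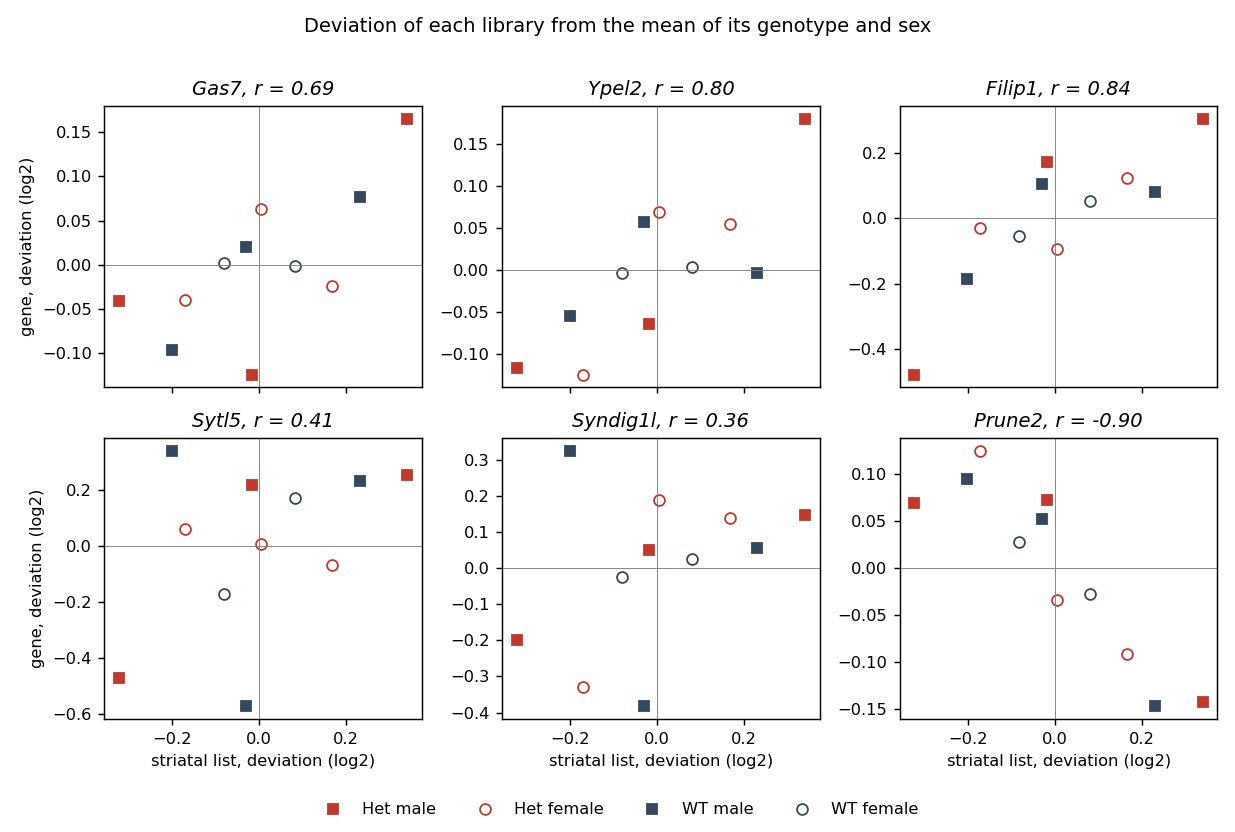
Deviation of each library from the mean of its genotype and sex, on the log2 scale, for each gene (vertical axis) against the mean of the striatal marker list (horizontal axis), with red for Het, blue for WT, squares for males and circles for females. Points rise to the right for Gas7, Ypel2 and Filip1 (r = 0.694, 0.798 and 0.837), and fall to the right for Prune2 (r = -0.9).

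The genes most alike to each member, after genotype and sex were taken out, differed from member to member. For Gas7 they were St6gal2 (Pearson r = 0.960 over 11 libraries), Jkamp (0.948) and Dab1 (0.946), and for Ypel2 they were Mustn1 (0.968), Cpsf7 (0.961) and Acer2 (0.958). Filip1 was most like Wasf1 (0.971), which encodes a subunit of the WAVE complex that drives actin branching, then Fadd (0.961) and Rrs1 (0.953). Sytl5 was most like Shisal1 (0.956), Sgsh (0.921) and Xlr (0.920). Among the genes most like Syndig1l were Zfp651 (0.945) and Nomo1 (0.929), and Prune2 was most like Itprid2 (0.982), Crebrf (0.959) and Prps1 (0.958). None of the genes named here passed the Het against WT test. The highest correlations out of all genes tested are high by their choice, so these values are descriptions.

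The male minus female difference itself was not used to choose the genes. Its test shares the residual spread of the genotype test, with the same SE (0.06 for Gas7, 0.08 for Ypel2 and 0.15 for Filip1). Genes picked for a clear genotype difference can thus also have a small p for sex, and shares of all genes are not an equal comparison. All 6 genes had a higher level in males than in females once genotype was taken into account, while 48.2% of all genes tested had a positive male minus female difference. The means and SDs by sex here pool both genotypes, so the SDs include the genotype difference. The log2 differences beside them have genotype in the fit. Gas7 averaged 171 ± 35.1 CPM in males and 155 ± 35.7 CPM in females (SD, n = 6 and n = 5), with a log2 difference of 0.20 (95% interval 0.07 to 0.33). Ypel2 averaged 36.8 ± 9.10 CPM in males and 33.2 ± 8.49 CPM in females, with a log2 difference of 0.22 (0.05 to 0.38). Filip1 averaged 8.40 ± 3.24 CPM in males and 6.45 ± 2.57 CPM in females, with the largest log2 difference of the 6, 0.46 (0.14 to 0.79). These 3 had p of 0.0048, 0.012 and 0.0079 by limma, where 5.75% of all genes were higher in males at an unadjusted p below 0.05. After Benjamini-Hochberg adjustment over all genes none of the 6 passed, with limma adjusted p of 0.215 for Gas7, 0.266 for Ypel2 and 0.240 for Filip1. Across all genes, limma called 26 or 0.197% by sex after adjustment, and 1609 or 12.2% had an unadjusted p below 0.05 in either direction. How many genes differ by sex cannot be told from so few libraries.

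In single-gene tests, two-sided exact permutation of sex within genotype over 200 arrangements gave p = 0.015 for Gas7, 0.01 for Ypel2 and 0.03 for Filip1, with 0.005 the smallest p possible. The other 3 had differences of 0.15 for Sytl5 (95% interval -0.30 to 0.60, exact permutation p = 0.46), 0.29 for Syndig1l (-0.02 to 0.60, p = 0.11) and 0.10 for Prune2 (-0.04 to 0.23, p = 0.165). Sytl5 is on the X chromosome, and its interval reached from lower to higher in males. For Prune2 the sign turned to -0.05 with prefix as a term, and to -0.06 in prefix 14309. Sex is partly tied to prefix, since prefix 14308 holds males only.

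Each member had a higher mean in Het in both sexes. The genes were picked on the genotype contrast in these same libraries, so this carries no weight of its own. The groups held 3 Het males, 3 WT males, 3 Het females and 2 WT females, so an SD in WT females rests on 2 libraries and says little about spread. In males Gas7 averaged 200 ± 21.1 CPM in Het and 142 ± 8.61 CPM in WT, and in females 181 ± 7.02 CPM in Het and 117 ± 0.211 CPM in WT. Filip1 averaged 10.8 ± 3.00 CPM in Het males and 6.04 ± 0.704 CPM in WT males, and 8.29 ± 0.686 CPM in Het females and 3.68 ± 0.223 CPM in WT females. The log2 difference in males was 0.49 for Gas7, 0.60 for Ypel2, 0.75 for Filip1, 1.1 for Sytl5, 0.72 for Syndig1l and 0.39 for Prune2. In females it was 0.63, 0.68, 1.07, 1.08, 1.0 and 0.33 in the same order. The difference between the sexes was -0.14 for Gas7 (95% interval -0.40 to 0.13), -0.08 for Ypel2 (-0.41 to 0.25) and -0.32 for Filip1 (-0.97 to 0.33). It was 0.01 for Sytl5 (-0.92 to 0.95), -0.28 for Syndig1l (-0.91 to 0.35) and 0.06 for Prune2 (-0.22 to 0.34). Adjusted p by limma was 0.982 or more for all 6, and across all genes 0 passed, with 613 genes or 4.65% at an unadjusted p below 0.05. The intervals are wide enough to hold sex differences as large as the genotype difference itself in Filip1 and Syndig1l.

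**Figure D4:**
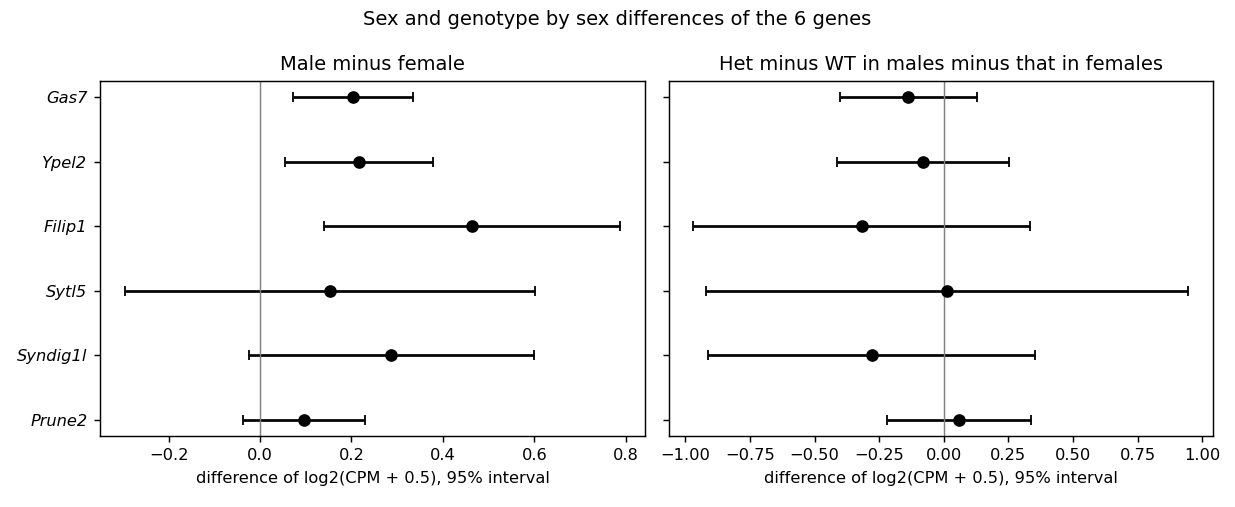
Male minus female difference (left) and the Het minus WT difference in males minus that in females (right), each on the log2(CPM + 0.5) scale (horizontal axis), for the 6 genes with 95% intervals from limma. The left intervals of Gas7, Ypel2 and Filip1 lie above 0, and all 6 right intervals include 0.

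Relatives and partners of the members mostly did not change with genotype. Of 80 listed genes, 78 are in the table, 73 were tested, and 2 rose in Het by limma with Benjamini-Hochberg adjustment, or 2.74% against 2.30% of all genes. None fell (5 of the 73 were lower and 10 higher at an unadjusted p below 0.05, as were 2938 of all 13184 genes in either direction), and the median difference was 0.03. Srgap3, an F-BAR protein with a Rac GTPase-activating domain that shapes neurites, averaged 21.5 ± 1.99 CPM in Het and 15.4 ± 2.02 CPM in WT (log2 difference 0.48, SE 0.10, limma adjusted p = 0.0196). Rab3c, a synaptic vesicle GTPase, averaged 206 ± 11.8 CPM in Het and 158 ± 16.2 CPM in WT (0.39, SE 0.07, limma adjusted p = 0.00709). Srgap3 lost its call without the library labelled Het replicate 9 (limma adjusted p = 0.0521), without WT replicate 4 (0.0610), without both libraries in doubt (0.0650) and with the striatal covariate (0.0848), while Rab3c kept its call in these 4 runs (0.0272, 0.0272, 0.0323 and 0.0405). The log2 difference of Srgap3 in the same runs was 0.46, 0.41, 0.44 and 0.61, so with the striatal covariate it was larger than the 0.48 of all libraries without it. Within prefix 14308 alone, limma adjusted p was 0.538 for Srgap3 and 0.267 for Rab3c, and within prefix 14309 it was 0.208 and 0.160 in the same order.

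By family, 1 of 18 other F-BAR genes passed, Srgap3, and 0 of 17 actin assembly genes, with medians of -0.02 for each list. The Yippee-like relatives differed from Ypel2 in direction or size, and none of the 4 passed. Ypel3 averaged 63.3 ± 15.8 CPM in Het and 84.8 ± 23.1 CPM in WT (log2 difference -0.45, limma adjusted p = 0.0913), and Ypel5 averaged 322 ± 18.5 CPM in Het and 316 ± 35.3 CPM in WT (0.04, adjusted p = 0.728). Ypel4 had a difference of 0.03 and Ypel1 of -0.13. Without WT replicate 3, Ypel3 passed. These 4 genes share sequence with Ypel2, and how the counting treated reads that match several genes was not given in the sources used here.

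Among the filamin genes none of the 4 tested passed. Flna, the filamin that Filip1 is known to act on, averaged 5.77 ± 2.52 CPM in Het and 5.26 ± 1.51 CPM in WT (log2 difference 0.04, limma adjusted p = 0.934). Filip1l, the closest relative of Filip1, was at 0.987 ± 0.518 CPM in Het and 1.41 ± 0.493 CPM in WT (-0.37, limma adjusted p = 0.440).

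In the list of synaptotagmin-like and Rab genes 1 of 13 passed, Rab3c. Sytl2 averaged 17.5 ± 2.52 CPM in Het and 16.6 ± 2.15 CPM in WT (0.09), and Sytl4 averaged 13.1 ± 2.51 CPM in Het and 15.4 ± 4.53 CPM in WT (-0.15). Sytl1 and Sytl3 were below the level tested, at 0.175 and 0.245 CPM in Het and 0.361 and 0.377 CPM in WT. Rab27a and Rab27b, the GTPases that synaptotagmin-like proteins bind, had differences of 0.19 and 0.12 with limma adjusted p of 0.398 and 0.483.

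The SynDIG and AMPA receptor list had 0 of 13 pass, with 11 positive differences and a median of 0.13. Syndig1 averaged 62.3 ± 7.81 CPM in Het and 57.5 ± 5.38 CPM in WT (0.13, limma adjusted p = 0.378). The largest difference of the list was 0.33 for Cacng4, a transmembrane AMPA receptor regulatory protein (limma adjusted p = 0.0684). Of the 4 tested relatives of Prune2 none passed. Prune1 had a difference of 0.03, Bnip2 of -0.10 and Atcay, the caytaxin gene, of 0.14 (limma adjusted p = 0.890, 0.570 and 0.171).

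**Figure D5:**
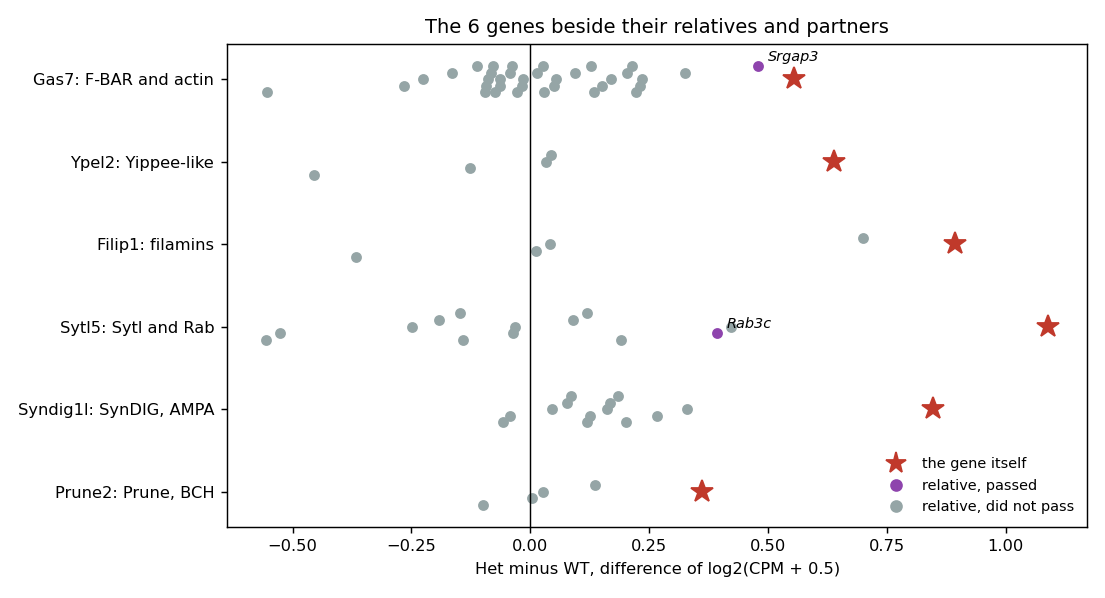
Het minus WT difference of log2(CPM + 0.5) (horizontal axis) of the 6 genes (stars) and of the tested genes of their families and partners (dots, purple where they passed). The 2 genes that passed are Srgap3 at 0.48 and Rab3c at 0.39, and 41 of the 73 dots lie above 0.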

How the data were processed

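The deposited values were log2 CPM plus a constant after RUVr, a removal of unwanted variation estimated from residuals, as the deposited table is named. Trimmomatic, Bowtie2, STAR, HTSeq and build mm10 are named per the submitters' processing notes, with no versions. The settings of the correction were not given in the sources used here. Every column had the same floor and upper quartile. CPM were recovered by back-transformation, and 100% of values were whole multiples of 1 step per library within 0.02. These counts are corrected, so raw sequencing depth is unknown. Over 12361 genes, 1 direction across libraries held almost no variation (singular value 0.268, against 17.9 to 31.8), and it was not correlated with genotype (r = -0.000581) or sex (0.00462). Variation inside groups had thus been taken out, and p-values may be too small.

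Fits used limma 3.58.1 in R 4.3.3 (lmFit, eBayes with trend) on log2(CPM + 0.5) for genes with mean CPM of at least 1, with genotype and sex as terms, and their product for the interaction. Tests were two-sided, with Benjamini-Hochberg adjustment over 13184 genes. The method was tested on simulated data. The 6 genes and all lists were chosen with earlier results of these data known. Named beside them were relatives that passed, their closest relatives, the 3 genes most alike to each, and markers; 1 gene that this rule takes is not reported here. Flna, Rab27a, Rab27b and Cacng4 were named after their values were seen. Alternatives changed scaling, filter, added constant, libraries, prefix, sex, replicate block and degrees of freedom.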

Additional observations from a re-analysis of the deposited data

Results flagged for a closer look

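The level of Myt1l in the library labelled Het replicate 9, 130 CPM, lay far from the other 5 Het libraries, which were at 58.7 to 75.9 CPM. It was found by Dixon's criterion at the 95% level, applied to the Het and WT values of 22 genes. Of the 44 groups tested, 1 was found, where chance alone finds about 1 in 20. The same library was the highest Het library for 5 of the 6 genes described, and no value of the 6 genes themselves met the criterion in either genotype. Whether that library carries the genotype of its label was not tested.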

How the results depend on the processing

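Over 26 alternative settings all 156 Het minus WT differences of the 6 genes were positive, and 153 moved by less than 1 SD. The other 3 were with the striatal covariate, 0.46 for Ypel2, 0.46 for Filip1 and 0.57 for Prune2. The genes were picked for a positive difference in these same libraries, so the shared sign carries no weight of its own. The settings without a filter and with 1 residual degree of freedom off cannot change a difference. Of all genes, 453 were called between genotypes. The count was 140 to 820 when each library was left out, 229 without both libraries in doubt, 300 with prefix as a term, 6 in prefix 14308, 16 in prefix 14309, 189 with 1 residual degree of freedom off, 1 in males and 35 with the striatal covariate. In females it was 0 by limma, with 1981 at an unadjusted p below 0.05. Among relatives the 2 calls became 1 to 5 when each library was left out, 1 without both libraries in doubt, 1 with prefix as a term, 0 in each prefix and 1 with the covariate. For sex the 26 calls became 10 to 62 when each library was left out, 17 without both libraries in doubt, 6 with prefix as a term, 5 in prefix 14309 and 11 with 1 degree of freedom off. For genotype by sex the 0 calls became 1 in prefix 14309 and stayed 0 when each library was left out. The male minus female difference of Prune2 reversed to -0.05 with prefix as a term and to -0.0552 in prefix 14309. The genotype by sex difference of Ypel2 reversed to 0.0975 in prefix 14309, and that of Sytl5 to -0.1573 with prefix as a term and to -0.1373 in prefix 14309. When each library was left out it ran from -0.2733 to 0.2481 for Sytl5 and from -0.015 to 0.1291 for Prune2. The cause was not tested. Prefix as a term gives WT replicate 4 no weight. In the other libraries, prefix 14308 holds 2 Het and 2 WT males, and prefix 14309 holds 1 Het male, 1 WT male and all the females. Prefix is thus balanced over genotype within sex there, and the genotype differences with this term equal those without WT replicate 4. Same-numbered Het and WT libraries had residual correlations of -0.246 (number 4) and 0.0416 (number 7) and carry different prefixes. The labels do not say that the numbers pair samples. These 2 correlations, taken after the correction, cannot decide whether they do. With the replicate block, 437 genes were called between genotypes and 27 by sex.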
